A study of Homo sapiens with 8 samples.

Results

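Cells given 240 or 480 µg/ml of bleomycin were set against cells given none or 24 µg/ml, over all genes. The sides were formed by dose, at a time when earlier results of these data were known. All 8 libraries of the series took part, 4 on each side. The high side held replicates 1 and 2 at 240 µg/ml and at 480 µg/ml, and the low side held replicates 1 and 2 of untreated cells and of cells at 24 µg/ml. The cells came from H7, an established line of human embryonic stem cells of unaltered genotype, which the labels describe as differentiated type 2 alveolar cells, the lung cells that make surfactant. Lung progenitors were reached after 21 days and were then kept at an air-liquid interface for 7 days. Every treated culture received bleomycin on its apical surface, in 500 µl, for 24 hours. No vehicle is named for the untreated cells. The stock named in the labels, 10 µg/ml of bleomycin, is weaker than all 3 doses, and 1 line stands for all cultures. The series was made to look at fibrosis-related gene expression in these cells.

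Bleomycin binds iron and oxygen and cuts DNA, and in animals it is given to produce lung fibrosis. Cut DNA activates kinases that stabilise the transcription factor p53. p53 raises genes that halt the cell cycle, trigger cell death, repair DNA and restrain p53 itself. The arrest in turn lets repressor complexes of the DREAM and RB families settle on promoters of genes for DNA replication and mitosis. In the lung, damaged alveolar cells can show arrest, loss of surfactant genes and signals to fibroblasts.

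Levels are CPM, the usual unit of a gene's counts relative to the total of its library, scaled by TMM factors, and 8 values of a gene are always given in 1 order. Summed levels of a list are CPM without TMM factors. On the low side come untreated replicates 1 and 2 and then 24 µg/ml replicates 1 and 2, and on the high side 240 µg/ml replicates 1 and 2 and then 480 µg/ml replicates 1 and 2. A value ± error with no unit is a log2 fold change ± SE, high side minus low side, from edgeR's quasi-likelihood test of 4 libraries against 4. A gene is called, and is said to rise or fall, where its Benjamini-Hochberg adjusted p over all genes tested is under 0.05. The 4 libraries of a side are 2 doses of 2 libraries, not replicates of 1 condition, and differences between the doses enter the spread. Nothing in the labels says that replicates were separate cultures, so the spread behind the p-values is that of these libraries and may be technical only.

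Of 17385 genes tested, 6634 were called (38.2%). Of these, 3413 were higher on the high side (19.6% of those tested) and 3221 were lower (18.5%). The 4 libraries of one side lay beyond the 4 of the other for 6717 genes (38.6%), of which 3485 were higher (20.0%) and 3232 lower (18.6%), and 5856 genes were both called and without overlap (33.7%). The median size of a called log2 fold change was 0.624, and 25% of them were under 0.427. A change of at least 2-fold was called for 723 genes higher (4.16%) and 726 lower (4.18%). The median log2 fold change over all genes tested was 0.0090. By limma on log2(TPM + 1), 2382 genes were higher and 3654 lower, so that 39.5% of the calls were higher in place of 51.4%. With the untreated group left out, 2 libraries against 4 gave 1374 genes higher and 1453 lower, and with the 24 µg/ml group left out 1765 and 1736.

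**Figure D1:**
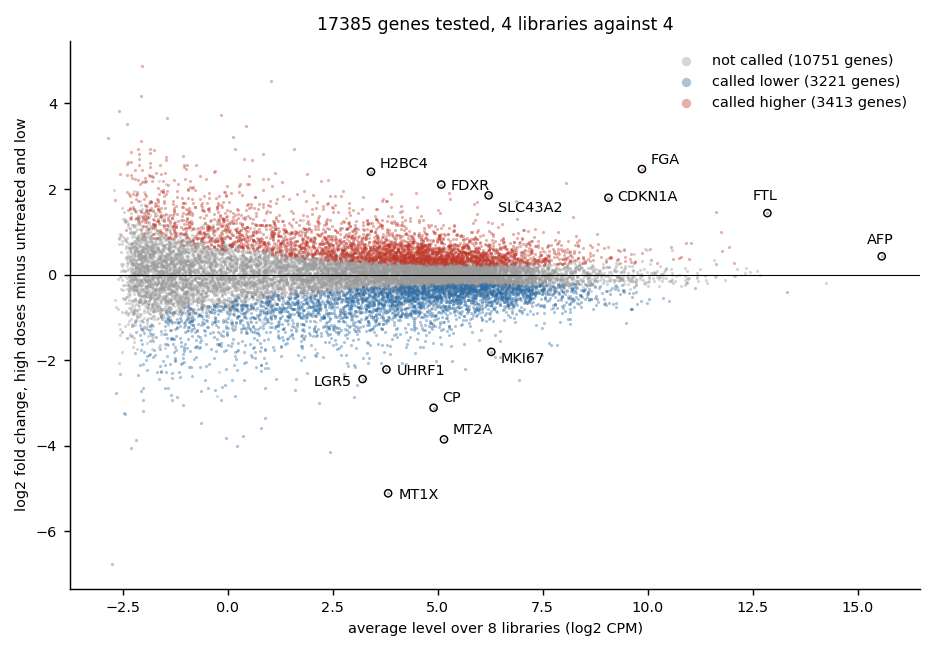
Each point is 1 of the 17385 genes tested, placed by its average level over the 8 libraries (log2 CPM, horizontal) and its log2 fold change between the sides (vertical), red where called higher, blue where called lower and grey where not called. The 3413 red and 3221 blue points lie across the range of levels, and FGA at 2.47 and MT1X at -5.11 stand furthest out among the ringed genes.

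Within each side few genes differed between the doses by edgeR over all 8 libraries. In the fit of the 4 dose groups, with 18303 genes tested, edgeR called 0 genes higher (0%) and 0 lower (0%) at 24 µg/ml against untreated cells, with 605 genes at an unadjusted p under 0.05, while DESeq2 called 32 higher and 4 lower, edgeR without its low-count filter 60 and 23, and edgeR on the 4 libraries compared 12 and 2. Without 480 µg/ml replicate 1 or without 480 µg/ml replicate 2 the same fit called 22 and 2. At 480 against 240 µg/ml it called 5 genes higher (0.0273%) and 42 lower (0.229%), with 2055 at an unadjusted p under 0.05. Those counts hung on single libraries: they were 397 and 1033 without 480 µg/ml replicate 1, 615 and 856 without 480 µg/ml replicate 2, 1 and 7 without 24 µg/ml replicate 1, and 0 and 0 with any other library left out. The first principal component, with 54% of the variance, placed the sides apart, and the second, with 12.1%, placed the 2 libraries of 480 µg/ml apart from each other.

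The libraries held 53431773 to 67715984 counts each. Mitochondrially encoded genes took 1.53%, 1.59%, 1.06% and 1.52% of counts on the low side and 2.06%, 1.74%, 1.70% and 3.02% on the high side (mean 1.43 ± 0.247% against 2.13 ± 0.618%, SD, n = 4, exact permutation test, two-sided, p = 0.0286, the smallest that 70 assignments allow). Ribosomal RNA took 1.93 ± 0.698% and 1.93 ± 0.935% (exact permutation p = 1). Genes with at least 1 count numbered 22443 ± 593 and 23528 ± 715 (exact permutation p = 0.0571). The part of these shares in the results below was not tested beyond 1 alternative: leaving out mitochondrial, ribosomal RNA and AFP counts gave 3408 genes higher and 3229 lower.

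The 4 genes given first were picked by smallest p or widest gap between the sides. They stood near 1 level through 24 µg/ml and near another from 240 µg/ml on. SLC43A2 (chr17:1569254-1630088 in GRCh38.p14), which encodes a transporter of neutral amino acids, stood at 31.6, 29.1, 36.2 and 31.9 CPM on the low side and 99.7, 113, 113 and 139 CPM on the high side (log2 fold change 1.85 ± 0.11, adjusted p = 2.16e-05). Its lowest high-side library was above 2-fold of its highest low-side library, and it had the smallest p of the higher genes at an average level of 3 log2 CPM or more. IFFO2 (chr1:18904280-18956676), an intermediate filament family gene, was its counterpart among the lower genes, with 23.3, 22.4, 20.2 and 23.3 CPM on the low side and 7.51, 7.09, 6.24 and 7.15 CPM on the high side (log2 fold change -1.67 ± 0.10, adjusted p = 2.16e-05). CROT, a peroxisomal acyltransferase gene, stood at 96.7, 95.3, 109.5 and 109.5 CPM on the low side and 199, 231, 228 and 202 CPM on the high side (log2 fold change 1.06 ± 0.090, adjusted p = 0.000152). For CUL9, the gene of a cullin that binds p53, the values were 17.6, 18.05, 17.7 and 18.7 CPM on the low side and 33.3, 33.3, 34.7 and 38.5 CPM on the high side (log2 fold change 0.96 ± 0.086, adjusted p = 0.000152). In none of these 4 genes did the 2 sides overlap, and the 2 libraries of a dose lay near those of the other dose of their side. Both traits follow in part from the choice, as differences between the doses of a side count as spread in the pooled test.

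Other genes outside the gene lists were among the clearest differences. MAN2B2, a lysosomal mannosidase gene (0.97 ± 0.086, adjusted p = 0.000152), GSTA2, a glutathione transferase gene (1.29 ± 0.11, adjusted p = 0.000150), and the pseudogene SSXP10 (1.32 ± 0.12, adjusted p = 0.000152) rose. Both SSXP10 and GSTA2 have near-identical copies elsewhere, which makes the value of either uncertain. SLC7A1, a cationic amino acid transporter gene, stood at 36.7 ± 3.92 against 11.3 ± 2.70 CPM (SD, n = 4; -1.70 ± 0.16, adjusted p = 0.000152). GFRA1, a receptor gene for glial cell line-derived neurotrophic factor (-1.92 ± 0.18, adjusted p = 0.000152), PRPS2, an enzyme gene of nucleotide synthesis (-1.33 ± 0.12, adjusted p = 0.000152), NRARP, a feedback gene of Notch signalling (-1.18 ± 0.11, adjusted p = 0.000152), and FLT1, a VEGF receptor gene (-1.17 ± 0.11, adjusted p = 0.000152), fell.

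The largest rises among genes of at least that level were in fibrinogen, histone and p53 target genes and in a mixed set. FGA, the fibrinogen alpha chain gene (chr4:154583126-154590742), stood at 297, 326, 324 and 196 CPM on the low side and 1216, 1369, 1795 and 1938 CPM on the high side (log2 fold change 2.47 ± 0.19, adjusted p = 0.000118). FGG, the gamma chain gene (2.15 ± 0.20, adjusted p = 0.000152), HHAT, which encodes the enzyme that attaches palmitate to hedgehog proteins (1.82 ± 0.17, adjusted p = 0.000152), SYTL1, a vesicle transport gene (1.90 ± 0.20, adjusted p = 0.000186), APLP1, a relative of the amyloid precursor gene (1.78 ± 0.24, adjusted p = 0.000431), and PROM2, a membrane glycoprotein gene (1.78 ± 0.26, adjusted p = 0.000640), rose as well. The largest falls were in metal-binding genes (below) and in another mixed set. SLC17A4, an anion transporter gene (-2.59 ± 0.37, adjusted p = 0.000539), MGAM2, a glucoamylase family gene (-2.46 ± 0.44, adjusted p = 0.00167), C2CD4A (-2.21 ± 0.31, adjusted p = 0.000511), AOC3, an amine oxidase gene (-2.17 ± 0.32, adjusted p = 0.000637), and EMP1, an epithelial membrane protein gene (-2.06 ± 0.32, adjusted p = 0.000826), were among them. MGAM2 stood at 198, 199, 228 and 197 CPM on the low side and 61.6, 54.8, 24.8 and 8.76 CPM on the high side, with its 480 µg/ml libraries below those of 240 µg/ml.

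Target genes of p53 that stop the cell cycle or feed back on p53 rose in 11 of 16 cases. The list had a median of 0.63, beside 0.0090 for all genes, and 75% of it was called, beside 38.2%. CDKN1A (chr6:36676463-36687332), which encodes the p21 inhibitor of cyclin-dependent kinases, stood at 189, 158, 308 and 304 CPM on the low side and 720.0, 695, 765 and 1152 CPM on the high side (log2 fold change 1.80 ± 0.23, adjusted p = 0.000386). MDM2 (chr12:68808172-68850686), the gene of the ligase that degrades p53, stood at 126, 130.1, 198 and 223 CPM on the low side and 397, 398, 499 and 423 CPM on the high side (log2 fold change 1.34 ± 0.18, adjusted p = 0.000431). Both 24 µg/ml libraries of these genes lay above both untreated ones and below the high side. TRIM22, an antiviral ligase gene (1.21 ± 0.16, adjusted p = 0.000431), and SESN2, a stress sensor gene of the mTORC1 pathway (0.78 ± 0.13, adjusted p = 0.000930), rose too. The stress cytokine gene GDF15 stood at 163, 133, 282 and 299 CPM on the low side and 416, 349.8, 379 and 503 CPM on the high side (log2 fold change 0.91 ± 0.23, adjusted p = 0.0103). It lost its call with the untreated group left out (adjusted p = 0.0561) and with the 480 µg/ml group left out (adjusted p = 0.0536). GTSE1, a G2 phase gene that restrains p53 (-1.15 ± 0.20, adjusted p = 0.00141), fell. Not called were CCNG1 (-0.15 ± 0.096), ZMAT3 (0.17 ± 0.17), SFN (-0.0021 ± 0.34) and RPRM (0.27 ± 0.20). Without untreated cells 7 of the 16 were higher.

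Of 15 tested p53 targets of cell death, 10 rose and 0 fell (66.7% called, median 0.61). FDXR (chr17:74862497-74872994), a mitochondrial reductase gene of the p53 response, stood at 7.70, 7.60, 18.2 and 17.6 CPM on the low side and 47.3, 45.6, 50.6 and 77.0 CPM on the high side (log2 fold change 2.11 ± 0.30, adjusted p = 0.000517). Both 24 µg/ml libraries were above 2-fold of both untreated ones, and that step did not pass edgeR's test over the filtered genes (1.23 ± 0.19) but passed under 5 alternatives. FAS (chr10:88964050-89017059), a death receptor gene, stood at 4.74, 5.47, 8.44 and 11.1 CPM on the low side and 22.5, 20.5, 24.4 and 21.2 CPM on the high side (log2 fold change 1.57 ± 0.22, adjusted p = 0.000529). BAX, whose protein opens the mitochondrial outer membrane, stood at 77.7, 64.0, 87.7 and 93.7 CPM on the low side and 146, 162, 139.7 and 192 CPM on the high side (log2 fold change 0.98 ± 0.13, adjusted p = 0.000458). TP53I3, a quinone reductase gene (1.24 ± 0.17, adjusted p = 0.000466), and TNFRSF10C, a decoy receptor gene for TRAIL (1.26 ± 0.22, adjusted p = 0.00145), rose. BBC3, the PUMA gene, had 1.14 ± 0.24 and was called, while PMAIP1, the NOXA gene, had -0.0067 ± 0.13 and the TRAIL receptor gene TNFRSF10B 0.19 ± 0.082, neither called. Bulk RNA cannot tell fewer cells with a transcript from less of it in each cell, here and in every later result.

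Among p53 targets of repair and metabolism 13 of 16 rose and 0 fell (81.2% called, median 0.81). TIGAR, a phosphatase gene that slows glycolysis, stood at 13.4, 12.7, 15.9 and 16.6 CPM on the low side and 26.2, 25.5, 31.8 and 31.6 CPM on the high side (log2 fold change 0.97 ± 0.12, adjusted p = 0.000327). XPC, which recognises distorted DNA, stood at 45.8, 45.0, 56.5 and 60.8 CPM on the low side and 86.7, 84.1, 94.7 and 98.8 CPM on the high side (log2 fold change 0.81 ± 0.11, adjusted p = 0.000489). RPS27L, a ribosomal protein gene induced by p53 (0.79 ± 0.12, adjusted p = 0.000606), DDB2, another damage recognition gene (0.93 ± 0.16, adjusted p = 0.00136), POLH, a polymerase gene for damaged templates (0.83 ± 0.14, adjusted p = 0.00134), and PHLDA3, an AKT inhibitor gene (1.51 ± 0.23, adjusted p = 0.000722), were called. DDB2, POLH and PHLDA3 were picked after their values were seen. In all 3 p53 lists the median member was already higher at 24 µg/ml: relative to untreated cells it stood at 0.42, 0.75 and 0.89 log2 units at 24, 240 and 480 µg/ml for arrest and feedback, at 0.51, 1.04 and 0.95 for cell death, and at 0.39, 0.94 and 1.10 for repair and metabolism. For lists of mitosis, lysosome and ribosome biogenesis the same median at 24 µg/ml was 0.0039, 0.011 and -0.043. It was -0.67 for metal response, -0.25 for sterol and lipid synthesis, -0.22 for hepatic genes and -0.22 for intestinal genes. In some hepatic and intestinal genes replicates 1 and 2 at 24 µg/ml lay apart. ALB had 126235 and 67404 counts there, beside 93411 and 101084 in untreated cells. LGALS4 had 10776 and 5698, beside 9645 and 8502, while AFM went the other way, with 172 and 252. How far the hepatic and intestinal medians rest on replicate 2 was not tested. The lists were not tested against each other. In the step to 24 µg/ml no p53 target was called by edgeR with the filter on low counts and all 8 libraries, while FDXR, CDKN1A, MDM2, GDF15 and TNFRSF10C were each called higher under 5 alternatives and FAS under 2. The 5 were DESeq2, edgeR without that filter, edgeR without either 480 µg/ml replicate, and edgeR on the 4 libraries of that step alone. FAS was called under the DESeq2 and unfiltered fits.

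**Figure D2:**
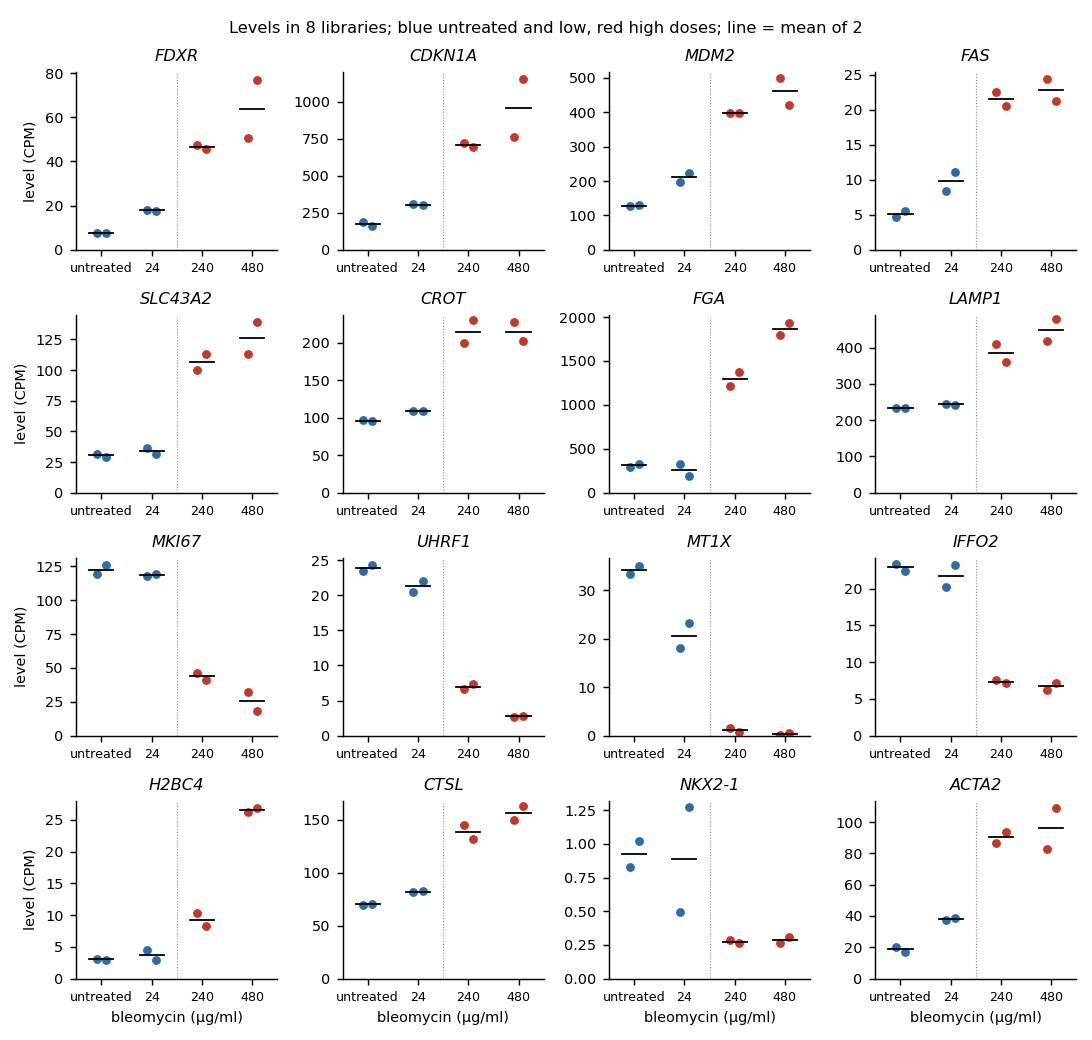
Each panel gives the level (CPM, vertical, from 0) of 1 gene in all 8 libraries by bleomycin dose (µg/ml, horizontal, evenly spaced), blue on the low side and red on the high side, with a line at the mean of the 2 libraries of a dose. SLC43A2, CROT and IFFO2 hold 1 level on each side of the dotted divide, FDXR, CDKN1A, MDM2 and ACTA2 are already higher at 24 µg/ml, and H2BC4 and UHRF1 move further from 240 to 480 µg/ml.

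Genes of G2 phase and mitosis fell almost without exception. Of 36 tested, 35 fell and 0 rose, all 35 without overlap between the sides, with a median of -1.20 (97.2% called, beside 18.5% of all genes called lower). The exception was BUB3, a checkpoint gene, at -0.15 ± 0.085. MKI67 (chr10:128096659-128126423), the gene of the Ki-67 protein of dividing cells, stood at 119, 126, 118 and 119 CPM on the low side and 46.2, 41.4, 32.4 and 18.1 CPM on the high side (log2 fold change -1.81 ± 0.22, adjusted p = 0.000322). Its 24 µg/ml libraries lay close to the untreated ones, and 480 µg/ml replicate 2 was the lowest. ECT2, which drives the cleavage furrow, stood at 55.6, 57.8, 52.2 and 58.3 CPM on the low side and 25.5, 23.7, 22.2 and 13.3 CPM on the high side (log2 fold change -1.40 ± 0.17, adjusted p = 0.000279). CENPA, the centromere histone gene (-1.42 ± 0.18, adjusted p = 0.000364), BUB1, a spindle checkpoint kinase gene (-1.31 ± 0.17, adjusted p = 0.000379), and TOP2A, the gene of a topoisomerase that untangles sister chromatids (-1.26 ± 0.23, adjusted p = 0.00193), fell. In this list 7 members were also called lower at 480 against 240 µg/ml, KIF20A, a motor gene of late mitosis, among them (-1.13 ± 0.11, adjusted p = 0.0140). KIF20A stood at 49.7, 50.8, 51.3 and 51.1 CPM on the low side and 22.4, 22.9, 10.3 and 10.4 CPM on the high side, so that both doses of the high side were apart.

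Promoters of the mitosis list held the letters TTTGAA, known as the cell cycle homology region to which the DREAM complex binds, more often than promoters at large. In windows from 250 bases before to 50 after the start (RefSeq, GRCh38.p14, both strands), 22 of 30 list promoters held it (73.3%), beside 15.4% of all 27305 promoters, 10.1% of those of genes tested and 1 of 35 (2.86%) of those on the replication list. The box CCAAT was in 76.7% of the mitosis promoters and 35.7% of all. The letters GCGGGAA, a core of E2F sites, were in 17 of 35 promoters of the replication list (48.6%), 6.56% of all promoters and 2 of 30 of the mitosis list (6.67%). Each motif was counted on its own, so that matches may overlap. These shares describe letters, not bound sites, and were not tested. The 150 bases before the start given there are shown for MKI67 (chr10:128126424-128126573, minus strand), PLK1 (chr16:23678739-23678888, plus strand) and CCNB2 (chr15:59104996-59105145, plus strand), mitosis genes with a match in this stretch, with TTTGAA in capitals. UHRF1 (chr19:4909351-4909500, plus strand), MCM3 (chr6:52284743-52284892, minus strand) and CDT1 (chr16:88803639-88803788, plus strand) follow as replication genes with GCGGGAA, on either strand, in capitals.
MKI67: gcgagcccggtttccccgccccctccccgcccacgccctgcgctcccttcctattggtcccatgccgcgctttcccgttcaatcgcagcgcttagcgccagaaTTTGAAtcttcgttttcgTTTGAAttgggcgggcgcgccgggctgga
PLK1: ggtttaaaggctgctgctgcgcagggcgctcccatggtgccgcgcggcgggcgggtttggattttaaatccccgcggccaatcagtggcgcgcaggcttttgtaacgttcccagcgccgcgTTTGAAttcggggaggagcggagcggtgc
CCNB2: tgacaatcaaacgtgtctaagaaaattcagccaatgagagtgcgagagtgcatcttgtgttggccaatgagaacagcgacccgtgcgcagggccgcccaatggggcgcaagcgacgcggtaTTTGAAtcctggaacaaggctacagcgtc
UHRF1: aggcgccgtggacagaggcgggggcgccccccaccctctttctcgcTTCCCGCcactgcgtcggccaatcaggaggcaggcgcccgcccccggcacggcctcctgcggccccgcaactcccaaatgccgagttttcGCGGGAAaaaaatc
MCM3: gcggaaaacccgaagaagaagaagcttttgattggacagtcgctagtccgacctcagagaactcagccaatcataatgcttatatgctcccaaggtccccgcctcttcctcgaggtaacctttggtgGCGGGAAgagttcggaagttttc
CDT1: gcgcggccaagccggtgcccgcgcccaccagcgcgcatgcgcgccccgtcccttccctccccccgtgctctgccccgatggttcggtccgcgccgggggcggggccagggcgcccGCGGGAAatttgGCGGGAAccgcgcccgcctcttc

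The 3 mitosis genes shown were all lower: PLK1, a mitotic kinase gene, fell (-1.28 ± 0.23, adjusted p = 0.00161) and CCNB2, a cyclin gene, fell with it (-0.95 ± 0.17, adjusted p = 0.00174), as did MKI67 above. PLK1 stood at 52.2, 44.0, 50.1 and 52.7 against 27.3, 27.7, 13.0 and 13.9 CPM, so that the 480 µg/ml libraries were the lowest. MCM3, a helicase subunit gene (-0.93 ± 0.14, adjusted p = 0.000723), and CDT1, which loads that helicase (-0.76 ± 0.17, adjusted p = 0.00557), fell too. PLK1, CCNB2, MCM3 and CDT1 were picked for their promoters.

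Of 40 tested genes of DNA replication, 32 fell and 1 rose (82.5% called, median -0.76). UHRF1 (chr19:4903080-4962154), which carries DNA methylation through replication, stood at 23.4, 24.2, 20.5 and 22.1 CPM on the low side and 6.59, 7.35, 2.64 and 2.84 CPM on the high side (log2 fold change -2.22 ± 0.29, adjusted p = 0.000419). It was called lower again at 480 against 240 µg/ml (-1.35 ± 0.14, adjusted p = 0.0140), a step whose calls depend on single libraries as given above. RRM2, a subunit gene of ribonucleotide reductase, stood at 51.1, 61.6, 49.8 and 52.7 CPM on the low side and 28.9, 25.7, 20.5 and 17.96 CPM on the high side (log2 fold change -1.21 ± 0.14, adjusted p = 0.000277). POLE, the leading strand polymerase gene (-0.95 ± 0.11, adjusted p = 0.000264), and MCM2, a helicase subunit gene (-1.09 ± 0.20, adjusted p = 0.00164), fell. TYMS, the thymidylate synthase gene, went the other way (0.47 ± 0.11, adjusted p = 0.00566) and lost its call with the untreated or the 240 µg/ml group left out (adjusted p = 0.119 and 0.0509).

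Repair genes outside the p53 targets mostly fell. In homologous recombination and the Fanconi pathway 19 of 25 fell and 1 rose (80% called, median -0.62). RAD54B (-1.18 ± 0.16, adjusted p = 0.000489), a strand exchange gene, FANCB (-1.32 ± 0.21, adjusted p = 0.000823), of the Fanconi core complex, and BLM (-0.94 ± 0.15, adjusted p = 0.000966), a helicase gene, fell. Among genes of break signalling and end joining 11 of 21 fell and 1 rose (57.1% called, median -0.28). The checkpoint kinase gene CHEK1 stood at 21.9, 24.6, 22.5 and 22.8 CPM on the low side and 14.5, 12.1, 11.4 and 8.94 CPM on the high side (log2 fold change -0.97 ± 0.13, adjusted p = 0.000480). PRKDC, the catalytic subunit gene of DNA-dependent kinase (-0.67 ± 0.11, adjusted p = 0.000944), PARP1, a break sensor gene (-0.50 ± 0.081, adjusted p = 0.000996), and MRE11, a nuclease gene (-0.72 ± 0.13, adjusted p = 0.00176), fell, while ATM, the kinase gene at the head of the break response, had -0.23 ± 0.19, adjusted p = 0.368. LIG4, the end-joining ligase gene, rose (0.71 ± 0.16, adjusted p = 0.00461), a call lost by limma on TPM and with the untreated group left out (adjusted p = 0.0515 and 0.0518). The single rise in recombination was not called, so that 0 rose, with RLE factors, a replicate block, no filter on low counts or limma on TPM. The same held with the untreated or the 240 µg/ml group left out. It also held without either untreated replicate, 24 µg/ml replicate 1 or either 240 µg/ml replicate. Fewer members fell with a low group left out: 11 of recombination without untreated cells and 12 without 24 µg/ml, and 5 of break signalling without 24 µg/ml.

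Histone genes rose while replication genes fell. Of 13 tested on the list of replication-dependent histones 11 rose and 0 fell (84.6% called, median 1.18). H2BC4 stood at 3.02, 2.99, 4.51 and 2.99 CPM on the low side and 10.3, 8.23, 26.2 and 26.8 CPM on the high side (log2 fold change 2.40 ± 0.36, adjusted p = 0.000701). H1-2, a linker histone gene, stood at 17.1, 15.4, 18.5 and 13.6 CPM on the low side and 39.9, 32.3, 77.1 and 94.5 CPM on the high side (log2 fold change 1.92 ± 0.29, adjusted p = 0.000716). Both rose again from 240 to 480 µg/ml (1.52 ± 0.20, adjusted p = 0.0390 for H2BC4 and 1.24 ± 0.18, adjusted p = 0.0402 for H1-2). H2AC6 (1.18 ± 0.18, adjusted p = 0.000645), H2AC18 (1.72 ± 0.27, adjusted p = 0.000817) and H4C15, which is on no list (1.89 ± 0.19, adjusted p = 0.000173), rose as well. The mRNAs of these genes normally lack a poly(A) tail and the kit was made for mRNA, and what share of them the libraries took up was not tested. Histone genes are near-identical copies, which makes single values uncertain.

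Of 17 tested genes on the list of CDK inhibitors and senescence 11 fell and 1 rose (70.6% called, median -0.74). The list mixed such inhibitors with genes of the E2F, RB and HMG families, among others. CDKN1A, which rose (above), was not on it. The count therefore does not describe CDK inhibitors or senescence as a whole. LMNB1, the lamin B1 gene, stood at 53.1, 57.5, 52.0 and 53.1 CPM on the low side and 27.4, 29.9, 18.4 and 15.1 CPM on the high side (log2 fold change -1.25 ± 0.18, adjusted p = 0.000611). The E2F transcription factor genes E2F1 (-1.38 ± 0.21, adjusted p = 0.000760) and E2F8 (-1.42 ± 0.20, adjusted p = 0.000493) fell. CDKN2D, an INK4 inhibitor gene, rose (1.10 ± 0.27, adjusted p = 0.00774) but was not called with the untreated or the 24 µg/ml group left out (adjusted p = 0.0682 and 0.0566). CDKN2A, which encodes p16, had at most 17 counts in a library and was not tested. CDKN2B, of the same locus, stood at 17.9, 16.7, 11.8 and 11.8 CPM on the low side and 7.09, 5.52, 8.24 and 8.42 CPM on the high side (log2 fold change -0.99 ± 0.18, adjusted p = 0.00158). Its 24 µg/ml libraries lay between the untreated cells and the high side.

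**Figure D3:**
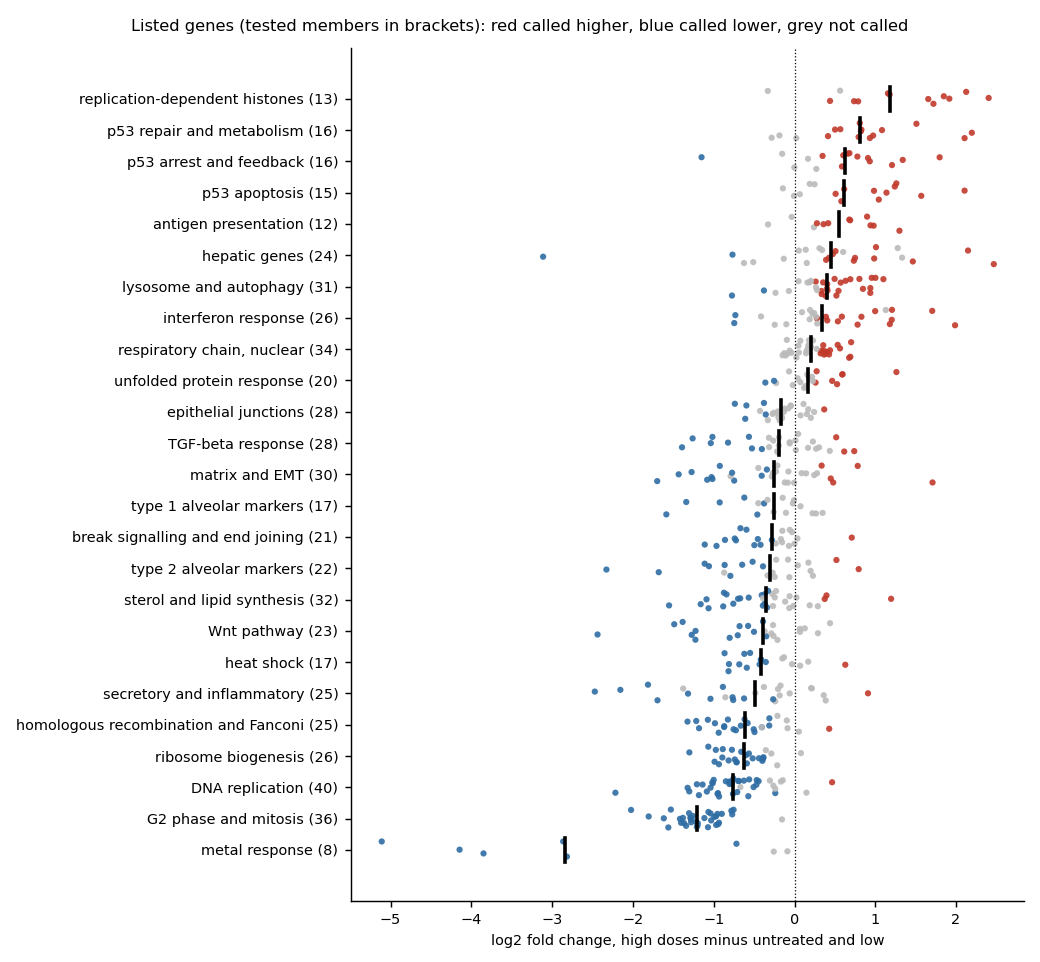
Points are the tested members of 25 of the gene lists by log2 fold change between the sides (horizontal), red where called higher, blue where called lower and grey where not called. Black bars mark the list median and the dotted line that of all genes tested, 0.0090; the medians run from -2.84 for metal response genes and -1.20 for mitosis to 1.18 for histones.

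The metallothionein genes MT1X and MT2A, whose proteins bind zinc and copper, had the largest falls of all genes at an average level of 3 log2 CPM or more. MT1X (chr16:56682470-56684196) stood at 33.3, 35.0, 18.1 and 23.2 CPM on the low side and 1.65, 0.784, 0.141 and 0.634 CPM on the high side (log2 fold change -5.11 ± 0.45, adjusted p = 0.000152). MT2A (chr16:56608584-56609497) stood at 90.7, 81.2, 43.5 and 50.4 CPM on the low side and 8.43, 4.05, 1.97 and 4.05 CPM on the high side (log2 fold change -3.85 ± 0.39, adjusted p = 0.000159). At 24 µg/ml both genes lay below untreated cells in both libraries, and the high side reached at most 8.43 CPM for MT2A and 1.65 CPM for MT1X. MT1E (-4.15 ± 0.44, adjusted p = 0.000186) and MT1F (-2.86 ± 0.38, adjusted p = 0.000440) fell too. Of the 8 tested metal response genes 6 fell and 0 rose (75% called, median -2.84), the zinc exporter gene SLC30A1 among them (-0.72 ± 0.11, adjusted p = 0.000739), while MTF1, the zinc-sensing factor gene that drives them, had -0.088 ± 0.096, adjusted p = 0.495. The metallothionein genes are near-identical copies in 1 cluster, and their single values are uncertain. The 150 bases before the starts of MT1X (chr16:56682320-56682469, plus strand) and MT2A (chr16:56608434-56608583, plus strand) are shown. Capitals mark matches on either strand to TGCNCNC, a looser form of the core of the metal response element that MTF1 binds. Each stretch holds 4 matches, but the letters are common: 55.2% of all promoters held at least 1, and 4 of 5 promoters of the list.
MT1X: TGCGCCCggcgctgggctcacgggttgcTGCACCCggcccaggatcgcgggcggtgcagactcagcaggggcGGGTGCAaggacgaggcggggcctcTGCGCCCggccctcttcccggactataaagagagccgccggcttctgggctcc
MT2A: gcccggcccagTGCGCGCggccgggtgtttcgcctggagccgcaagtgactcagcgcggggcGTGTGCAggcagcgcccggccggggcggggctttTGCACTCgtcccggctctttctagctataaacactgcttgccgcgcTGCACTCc

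Other genes of metal handling moved apart. CP, the gene of the copper protein ceruloplasmin (chr3:149162414-149221829), stood at 62.1, 55.8, 55.6 and 40.8 CPM on the low side and 6.89, 10.7, 4.31 and 2.91 CPM on the high side (log2 fold change -3.11 ± 0.32, adjusted p = 0.000175). FTL, the light chain gene of the iron store ferritin, stood at 4339, 3685, 4263 and 3640.0 CPM on the low side and 8600.2, 8240.3, 10670.0 and 15651 CPM on the high side (log2 fold change 1.44 ± 0.18, adjusted p = 0.000345). FTL was highest in 480 µg/ml replicate 2 and has processed copies, which makes its value uncertain. It is on the list of NRF2 targets, of which 11 of 26 fell and only FTL and FTH1, the heavy chain gene, rose (50% called, median -0.30). The reductase genes AKR1C1 (-1.15 ± 0.12, adjusted p = 0.000173), AKR1C2 (-0.98 ± 0.11, adjusted p = 0.000267) and AKR1B10 (-1.94 ± 0.28, adjusted p = 0.000575) fell, the first 2 being near-identical copies. SLC7A11, the cystine transporter gene, stood at 26.4, 28.2, 19.3 and 21.9 CPM on the low side and 9.47, 11.6, 8.79 and 5.10 CPM on the high side (log2 fold change -1.45 ± 0.21, adjusted p = 0.000603). NQO1 had -0.27 ± 0.092, adjusted p = 0.0386, a fall under 1.5-fold. Without untreated cells 6 NRF2 targets fell, and 1 in place of 2 rose without untreated replicate 1 or 2, 24 µg/ml replicate 2 or 480 µg/ml replicate 2.

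Genes that build ribosomes fell, while few genes of the ribosomal proteins themselves were called. In the list of ribosome biogenesis 22 of 26 fell and 0 rose (84.6% called, median -0.63). NOLC1, a nucleolar chaperone gene, stood at 77.7, 81.9, 71.2 and 83.2 CPM on the low side and 49.7, 47.0, 42.9 and 38.8 CPM on the high side (log2 fold change -0.82 ± 0.098, adjusted p = 0.000291). NPM1, the gene of the abundant nucleolar protein nucleophosmin, stood at 1275, 1193, 1233 and 1232 CPM on the low side and 822, 839, 735 and 727 CPM on the high side (log2 fold change -0.66 ± 0.081, adjusted p = 0.000321). UTP20 (-1.07 ± 0.13, adjusted p = 0.000315) and LYAR (-1.30 ± 0.16, adjusted p = 0.000305), of the small subunit and of nucleolar growth control, fell too. Of 45 cytosolic ribosomal protein genes RPL22 alone was called (2.22% called, median -0.049; -0.32 ± 0.098, adjusted p = 0.0258). RPL22 was not called without untreated replicate 1 (adjusted p = 0.0621), 24 µg/ml replicate 1 (0.0654) or 2 (0.0601) or 480 µg/ml replicate 2 (0.0552), and without 480 µg/ml replicate 1, 4 of the 45 were higher. MYC, a transcription factor gene that drives ribosome building, stood at 67.0, 56.3, 54.6 and 65.0 CPM on the low side and 33.4, 17.6, 10.7 and 14.5 CPM on the high side (log2 fold change -1.67 ± 0.28, adjusted p = 0.00104).

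Heat shock genes fell in 11 of 17 cases and rose in 1 (70.6% called, median -0.42). HSP90AA1, the gene of an inducible HSP90, stood at 969.5, 1036, 949.5 and 1018 CPM on the low side and 575, 545, 616 and 529 CPM on the high side (log2 fold change -0.81 ± 0.081, adjusted p = 0.000159). HSPH1 (-0.82 ± 0.098, adjusted p = 0.000291), HSPD1, the mitochondrial chaperonin gene (-0.68 ± 0.095, adjusted p = 0.000485), and HSPA1A, with its near-identical copy HSPA1B (-0.59 ± 0.11, adjusted p = 0.00185 and -0.55 ± 0.10, adjusted p = 0.00205), fell. The riser was HSPA4L, of the HSP110 family, with overlapping sides (0.63 ± 0.19, adjusted p = 0.0245), a call lost without untreated replicate 1 (adjusted p = 0.0711) or 2 (0.0738) or 480 µg/ml replicate 1 (0.0552). Of ATF4 targets and tRNA synthetase genes 12 of 24 fell and 3 rose (62.5% called, median -0.30). SLC7A5, an amino acid transporter gene (-1.09 ± 0.14, adjusted p = 0.000431), and PSAT1, of serine synthesis (-0.88 ± 0.11, adjusted p = 0.000390), were lower. The risers included SESN2, a p53 target given above. In the unfolded protein response, the answer of the endoplasmic reticulum to misfolded proteins, 7 of 20 rose and 2 fell (45% called, near the 38.2% of all genes). CRELD2, a chaperone gene of that compartment, stood at 9.28, 8.43, 9.36 and 9.80 CPM on the low side and 19.5, 22.5, 18.05 and 28.3 CPM on the high side (log2 fold change 1.26 ± 0.14, adjusted p = 0.000220). CALR, the calreticulin gene, rose (0.60 ± 0.095, adjusted p = 0.000904), while the chaperone gene HSPA5 had 0.12 ± 0.072, adjusted p = 0.207. Without untreated replicate 1 or 2, 4 members of this list rose and 0 fell, and without the untreated group 3 rose.

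Lysosome genes rose. Of 31 tested genes of lysosomes and autophagy 21 rose and 2 fell (74.2% called, median 0.40). CTSL (chr9:87726119-87731469), the cathepsin L gene, stood at 69.8, 70.2, 81.9 and 82.3 CPM on the low side and 145, 132, 150.0 and 163 CPM on the high side (log2 fold change 0.96 ± 0.096, adjusted p = 0.000159). LAMP1, a protein gene of the lysosomal membrane, stood at 235, 232, 244 and 243 CPM on the low side and 409, 359.5, 419 and 478 CPM on the high side (log2 fold change 0.80 ± 0.093, adjusted p = 0.000264). HEXA, the gene of a hexosaminidase subunit (0.69 ± 0.086, adjusted p = 0.000334), and NEU1, a sialidase gene (0.94 ± 0.13, adjusted p = 0.000440), rose as well, and so did MAN2B2 above, from outside the list. SQSTM1, a cargo receptor gene of autophagy, fell (-0.38 ± 0.10, adjusted p = 0.0119), as did TFEB, a master factor gene of lysosomes (-0.77 ± 0.24, adjusted p = 0.0233), a gene picked after its values were seen. Without untreated cells 12 rose and with the 24 µg/ml group left out 13, and 0 fell in either. Nuclear genes of the respiratory chain rose in 14 of 34 cases and fell in 0 (41.2% called, median 0.20), most by under 1.5-fold. That share was near the 38.2% of all genes called in either direction, while 19.6% of all genes were called higher. NDUFA4 (0.69 ± 0.11, adjusted p = 0.000782), NDUFB8 (0.70 ± 0.12, adjusted p = 0.00104) and NDUFA2 (0.68 ± 0.12, adjusted p = 0.00149), subunit genes, rose, while 4 rose with either low group left out and limma on TPM called 3 lower. The share of mitochondrially encoded counts moved in the same direction (above), and its part was not tested.

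Sterol and lipid synthesis genes fell in 17 of 32 cases and rose in 3 (62.5% called, median -0.35). FASN, the fatty acid synthase gene, stood at 431, 381, 368 and 390.2 CPM on the low side and 207, 209, 122 and 164 CPM on the high side (log2 fold change -1.16 ± 0.15, adjusted p = 0.000407). ACACA, of the first step of fatty acid synthesis (-0.67 ± 0.085, adjusted p = 0.000372), and HMGCS1, an early enzyme gene of cholesterol synthesis (-0.84 ± 0.16, adjusted p = 0.00213), fell. TM7SF2, a sterol reductase gene, stood at 48.6, 44.3, 52.2 and 45.1 CPM on the low side and 92.1, 102, 92.3 and 149 CPM on the high side (log2 fold change 1.20 ± 0.15, adjusted p = 0.000326). The 3 that rose became 1 with no filter on low counts, by limma on TPM, with either low group left out and without untreated replicate 1 or 2, 24 µg/ml replicate 1 or 2 or 480 µg/ml replicate 2. In the absence of untreated cells 10 fell. MSMO1, of the same pathway, stood at 243, 259, 178 and 149.8 CPM on the low side and 184, 149, 158 and 143 CPM on the high side and was not called (-0.39 ± 0.16, adjusted p = 0.0739): its 24 µg/ml libraries lay within the range of the high side.

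Interferon response genes rose in 13 of 26 cases and fell in 2 (57.7% called, median 0.34). IFI6, an interferon-induced mitochondrial gene, stood at 1.56, 1.71, 2.41 and 2.42 CPM on the low side and 4.61, 5.06, 7.94 and 8.91 CPM on the high side (log2 fold change 1.70 ± 0.24, adjusted p = 0.000512). MX1, an antiviral GTPase gene (1.18 ± 0.17, adjusted p = 0.000570), and ISG15, a ubiquitin-like modifier gene (1.00 ± 0.18, adjusted p = 0.00161), rose, all from levels under 10 CPM, and ISG20 fell (-0.75 ± 0.18, adjusted p = 0.00698). With the untreated group left out 7 rose and 0 fell, and with the 24 µg/ml group left out 8 rose. In antigen presentation 9 of 12 rose and 0 fell (75% called, median 0.55). TAP1, a peptide transporter gene, stood at 5.64, 5.04, 7.88 and 8.16 CPM on the low side and 14.3, 14.7, 16.4 and 20.4 CPM on the high side (log2 fold change 1.30 ± 0.17, adjusted p = 0.000440). HLA-B, a class I heavy chain gene, stood at 45.7, 42.3, 48.8 and 43.9 CPM on the low side and 81.6, 73.4, 73.7 and 108 CPM on the high side (log2 fold change 0.90 ± 0.12, adjusted p = 0.000485). HLA-C (0.68 ± 0.12, adjusted p = 0.00167) rose too, and reads of HLA genes can be split among similar copies. With the 24 µg/ml group left out 5 of the 12 rose.

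**Figure D4:**
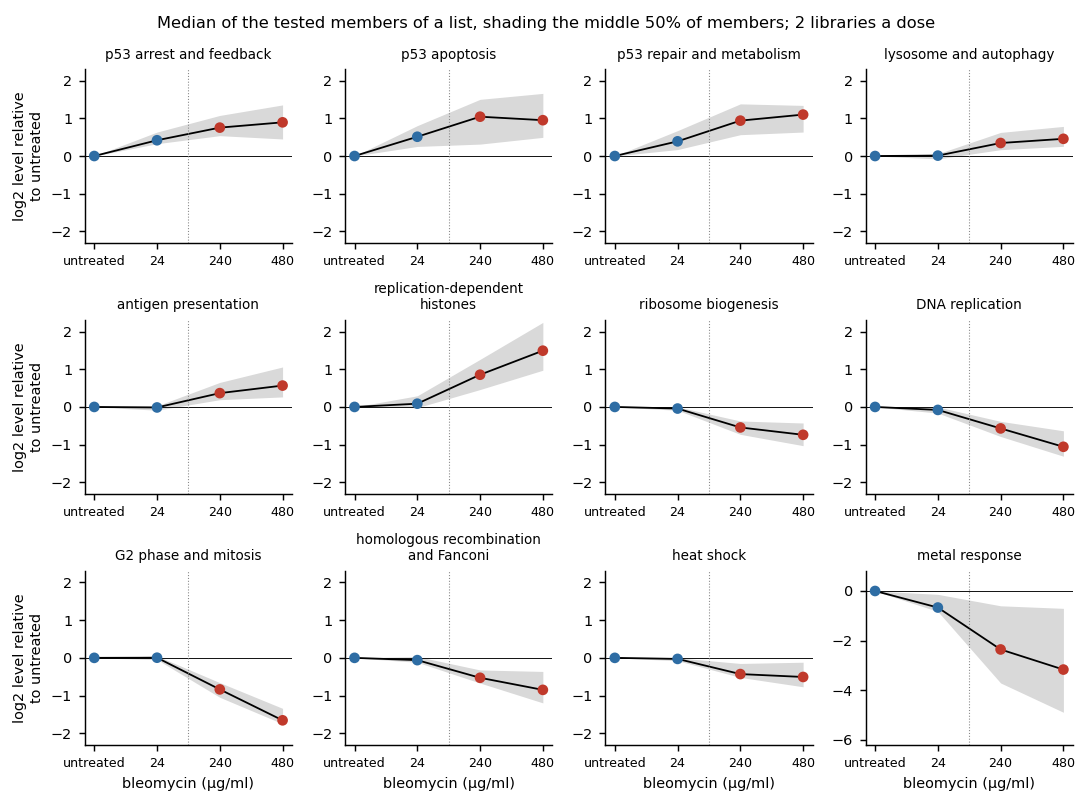
For 12 lists the line gives the median over tested members of the mean log2 level at each dose relative to untreated cells (vertical, CPM + 0.1), against bleomycin dose (µg/ml, horizontal, evenly spaced), and the shading spans the middle 50% of members. The 3 p53 lists stand at 0.39 to 0.51 at 24 µg/ml, the lists of mitosis, ribosome biogenesis, lysosome and heat shock within 0.1 of 0 there, and the metal response list, on its own scale, at -0.67.

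The matrix and transition genes listed here as related to fibrosis mostly fell or were not called. The list is from general knowledge, not from the submitters. Of 30 tested genes of matrix and of epithelial-mesenchymal transition 11 fell and 5 rose (53.3% called, median -0.25). COL3A1, a fibrillar collagen gene, stood at 47.1, 59.5, 52.6 and 71.4 CPM on the low side and 29.8, 31.0, 25.7 and 26.7 CPM on the high side (log2 fold change -1.03 ± 0.13, adjusted p = 0.000334). COL1A2, of type I collagen (-0.92 ± 0.13, adjusted p = 0.000470), and ZEB2, a transition factor gene (-1.70 ± 0.25, adjusted p = 0.000577), fell, while COL1A1, its partner chain, had -0.23 ± 0.12, adjusted p = 0.145 and VIM, the vimentin gene, -0.0047 ± 0.12. FN1, the fibronectin gene, fell from 11657 ± 729 to 8797 ± 724 CPM (SD, n = 4; -0.41 ± 0.086, adjusted p = 0.00396), a call lost with the untreated group left out (adjusted p = 0.0506). ACTA2 (chr10:88935074-88991337), the smooth muscle actin gene, stood at 20.4, 17.1, 37.4 and 39.0 CPM on the low side and 86.9, 93.9, 83.0 and 109 CPM on the high side (log2 fold change 1.71 ± 0.24, adjusted p = 0.000494). ACTA2 overlaps FAS on the opposite strand, and since the strand setting of the counting is not given in the sources used here, reads of the 2 cannot be told apart. The other 4 that rose were CDH2, COL5A2, TWIST1 and TIMP1, and 3 of the list rose without 24 µg/ml replicate 1 or 2 and 2 by limma on TPM. Markers of mesenchymal cells and fibroblasts, which could be present beside the epithelium, fell in 7 of 14 tested cases and rose in 2 (64.3% called, median -0.70). PDGFRA, a receptor gene of such cells, was among the lower ones (-1.25 ± 0.17, adjusted p = 0.000458). The summed level of these markers was 986 to 1044.5 CPM on the low side and 939 to 1023 CPM on the high side. FBLN1 and LUM made up most of it, with 26577 and 17568 counts in untreated replicate 1, beside 1540 for PDGFRA. The sum therefore says little about the other markers. Of 18 listed, 1 was at 0 counts throughout. COL1A1, COL1A2, COL3A1 and ACTA2 are on both this list and the matrix list, and the part of mesenchymal cells in the matrix results was not tested.

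TGF-beta response genes fell in 8 of 28 cases and rose in 3 (39.3% called, near the 38.2% of all genes). PMEPA1, a feedback gene, stood at 8.10, 6.65, 6.25 and 4.73 CPM on the low side and 3.67, 2.86, 3.20 and 2.99 CPM on the high side (log2 fold change -1.02 ± 0.17, adjusted p = 0.00115). SMAD3, a transducer gene (-0.56 ± 0.093, adjusted p = 0.00105), fell, and TGFB1, the ligand gene, had 0.17 ± 0.14, adjusted p = 0.373. ID2, a target of the BMP branch, rose (0.74 ± 0.11, adjusted p = 0.000680). The other risers were ID1, of the same branch, and LTBP2, and only 1 of the 3 was called without untreated replicate 1 or 2 or 240 µg/ml replicate 1, by limma on TPM or with no filter on low counts. INHBA, the activin A chain gene, stood at 2.42, 2.02, 0.604 and 0.570 CPM on the low side and 0.595, 0.539, 0.650 and 0.341 CPM on the high side and was called lower (-1.39 ± 0.47, adjusted p = 0.0352), although its 24 µg/ml libraries lay within the range of the high side. With untreated cells left out its change was -0.15 (adjusted p = 0.800), and the call was also lost without either untreated library (adjusted p = 0.119 and 0.103), either 240 µg/ml library (0.0566 and 0.0664) or 480 µg/ml replicate 2 (0.0989).

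Of the secreted inflammatory genes called, most were lower. Of 25 tested 11 fell and GDF15 alone rose (48.0% called, median -0.48). IL32, a cytokine gene, stood at 28.3, 23.4, 18.8 and 11.7 CPM on the low side and 7.53, 5.18, 6.12 and 4.58 CPM on the high side (log2 fold change -1.81 ± 0.24, adjusted p = 0.000440). The chemokine genes CCL20 (-2.47 ± 0.49, adjusted p = 0.00265), CXCL1 (-2.16 ± 0.46, adjusted p = 0.00381) and CXCL3 (-1.32 ± 0.27, adjusted p = 0.00320) fell from levels under 5 CPM. CXCL8 stood at 1.40, 0.812, 0.588 and 0.643 CPM on the low side and 0.307, 0.0816, 0.545 and 0.130 CPM on the high side (log2 fold change -1.70 ± 0.50, adjusted p = 0.0203), with its call lost without untreated replicate 1 (adjusted p = 0.0669) or 480 µg/ml replicate 2 (adjusted p = 0.0599). IL6 had 0 counts in all 8 libraries, and 3 counts, the most that a count of 0 allows, are 0.0561 CPM in the smallest library, for counting error only. Only 4 fell when untreated cells were left out.

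Markers of the labelled cell type were uneven before any dose. SFTPC, the surfactant gene most particular to type 2 cells, had at most 7 counts in a library, SFTPA1 at most 2 and SFTPA2 at most 7, and none of the 3 was tested, so the label is not borne out by these defining markers. Of the 22 type 2 markers tested 9 fell and 2 rose (50% called, median -0.30). SLC34A2, the phosphate transporter gene of type 2 cells, stood at 14.0, 15.3, 9.43 and 6.48 CPM on the low side and 4.03, 2.14, 1.30 and 1.58 CPM on the high side (log2 fold change -2.33 ± 0.35, adjusted p = 0.000716). LPCAT1, an enzyme gene of surfactant lipid (-0.79 ± 0.11, adjusted p = 0.000489), and the lung factor gene NKX2-1, at levels near 1 CPM or below (0.826, 1.02, 0.498 and 1.27 against 0.288, 0.261, 0.264 and 0.309 CPM; -1.68 ± 0.31, adjusted p = 0.00197), fell. ABCA3, the surfactant lipid transporter gene, rose, at 11.9, 14.2, 13.2 and 14.8 against 19.4, 16.6, 25.7 and 32.3 CPM (0.79 ± 0.18, adjusted p = 0.00555), a call lost with the untreated group left out (adjusted p = 0.0670). SFTPB stood at 14.9, 16.9, 11.3 and 31.2 CPM on the low side and 11.5, 11.2, 5.22 and 7.75 CPM on the high side with overlap between the sides (-1.06 ± 0.31, adjusted p = 0.0194), and its call was lost without 24 µg/ml replicate 2 (adjusted p = 0.0548) or 480 µg/ml replicate 2 (adjusted p = 0.0574). The summed level of the list was 1334 to 1420 CPM on the low side and 1212 to 1350 CPM on the high side. With a low group left out fewer fell, 4 without untreated cells and 5 without 24 µg/ml.

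Type 1 alveolar markers fell in 6 of 17 cases and rose in 0 (35.3% called, beside 38.2% of all genes in either direction and 18.5% lower). GPRC5A, a retinoid-induced receptor gene, stood at 342, 331, 259.5 and 283 CPM on the low side and 132, 84.6, 95.3 and 92.9 CPM on the high side (log2 fold change -1.59 ± 0.14, adjusted p = 0.000152). RTKN2 (-1.34 ± 0.15, adjusted p = 0.000220) and PDPN, the podoplanin gene (-0.93 ± 0.23, adjusted p = 0.00862), fell, and HOPX had -0.33 ± 0.26, adjusted p = 0.327. Without the untreated or the 480 µg/ml group 3 fell, PDPN not being called without 480 µg/ml (adjusted p = 0.0644) or without 24 µg/ml (adjusted p = 0.0577). Among epithelial junction genes 5 of 28 fell and 1 rose (21.4% called, beside 38.2%), and CDH1, the E-cadherin gene, stood at 1058, 1057, 1134 and 1115 CPM on the low side and 982, 919, 1078 and 922 CPM on the high side (log2 fold change -0.16 ± 0.082, adjusted p = 0.137). ESRP1, a splicing factor gene of epithelia, fell (-0.74 ± 0.11, adjusted p = 0.000719). Without 480 µg/ml replicate 1, 9 fell and 3 rose, and by limma on TPM 9 fell and 0 rose. The single rise of the main fit was also not called, so that 0 rose, with a replicate block or no filter on low counts. The same held with the untreated or the 24 µg/ml group left out. It also held without the second untreated, the first 240 µg/ml, the second 480 µg/ml or either 24 µg/ml library. Of 18 genes of transitional and basaloid cells 3 rose and 5 fell (44.4% called): CDKN1A and LGALS3, the galectin-3 gene (0.57 ± 0.099, adjusted p = 0.00136), rose, KRT8, a keratin gene of that state, had -0.26 ± 0.12, adjusted p = 0.112, and KRT17 had at most 3 counts. Without 480 µg/ml replicate 1, 5 rose, and 0 fell with the untreated group left out.

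Liver genes were abundant and in part rose. AFP, the alpha-fetoprotein gene, took between 3.37% and 6.34% of all counts in a library and rose from 41578 ± 6020.5 to 55935 ± 7802 CPM (SD, n = 4; 0.43 ± 0.13, adjusted p = 0.0199), a call lost without 240 µg/ml replicate 1 (adjusted p = 0.0552), by limma on TPM (0.166) and with the untreated (0.0798), 24 µg/ml (0.0842) or 240 µg/ml group left out (0.157). Of 24 tested hepatic genes 11 rose and 2 fell (54.2% called, median 0.45). Their summed level was 43405 to 60581 CPM on the low side and 68297 to 86614 CPM on the high side. AFP made up most of that sum, with 2368084 counts in untreated replicate 1, beside 156927 for APOA1. The sum therefore says little about the other hepatic genes. Besides FGA, FGB, the fibrinogen beta chain gene, stood at 1693, 2017, 1742 and 1309.7 CPM on the low side and 4589, 4587, 4805 and 4679.9 CPM on the high side (log2 fold change 1.46 ± 0.12, adjusted p = 0.000147), and APOA1 had 0.34 ± 0.16, adjusted p = 0.106. CP, on the same list, fell as given above. With 1 group left out the number that rose was 6 without untreated cells, 5 without 24 µg/ml, 6 without 240 µg/ml and 12 without 480 µg/ml.

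Intestinal genes split, with 4 of 18 higher and 5 lower (50% called). CDX2, the intestinal master factor gene, stood at 206, 190.4, 231 and 189 CPM on the low side and 307, 313, 363 and 417 CPM on the high side (log2 fold change 0.78 ± 0.11, adjusted p = 0.000574), while GPA33, a surface antigen gene (-1.68 ± 0.27, adjusted p = 0.000904), and OLFM4, a stem cell gene of the gut (-1.51 ± 0.32, adjusted p = 0.00405), fell. Without untreated replicate 1 or 2, 24 µg/ml replicate 1 or 480 µg/ml replicate 1, 3 intestinal genes fell. Which cells of the cultures carry the liver and intestinal transcripts was not tested.

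Further genes were called between 480 and 240 µg/ml. MFSD1, a transporter gene of the lysosomal membrane, stood at 6.18, 7.48, 5.95 and 6.19 CPM on the low side and 14.9, 13.0, 31.0 and 25.9 CPM on the high side and was called higher in that step (1.03 ± 0.15, adjusted p = 0.0402). LIN28A, an RNA-binding gene of early embryos, stood at 31.0, 35.7, 27.6 and 28.7 CPM on the low side and 9.62, 11.2, 4.08 and 3.84 CPM on the high side and was called lower in it (-1.40 ± 0.14, adjusted p = 0.0140). TM4SF4, a tetraspanin-like gene, stood at 379, 347, 309 and 235 CPM on the low side and 143, 157, 52.6 and 52.5 CPM on the high side and was called lower too (-1.52 ± 0.15, adjusted p = 0.0140). For GLP1R, a peptide hormone receptor gene, the step was -2.0 ± 0.23, adjusted p = 0.0311, with 21.7, 24.4, 19.6 and 26.0 against 8.43, 11.9, 2.92 and 2.19 CPM. Between the sides MFSD1 had 1.72 ± 0.25, adjusted p = 0.000546, LIN28A -2.10 ± 0.31, adjusted p = 0.000574, TM4SF4 -1.65 ± 0.34, adjusted p = 0.00331 and GLP1R -1.85 ± 0.42, adjusted p = 0.00533.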

How the data were processed

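Bulk RNA-seq was made with a stranded mRNA kit, per the labels' protocols, and Trimmomatic, HISAT2, Bowtie2, StringTie and GRCh38 (hg38) are named, without versions or roles, per the submitters' processing notes. The strand setting and gene annotation are not given in the sources used here. The authors deposited whole-number read counts per gene symbol for 46427 symbols, which were tested as deposited, and TPM values, used in 1 alternative. FPKM values were deposited by the authors too and were not used here. The group of each library came from its label.

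The main test was edgeR 4.0.16 (R 4.3.3): TMM factors, genes kept by filterByExpr with the side as group (minimum count 10, total 15), a quasi-likelihood fit of the side with 6 residual degrees of freedom, and Benjamini-Hochberg adjustment at 0.05 over 17385 genes. A filter that needs 4 libraries can drop a gene seen at 1 dose only. A fit of the 4 dose groups gave the steps within a side, and its group terms share libraries with the main test. SE is the log2 fold change over the square root of F. Shares of counts were compared by exact permutation over libraries, and floors are 3 counts.

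The members and the 42 gene lists were chosen with earlier results of these data known, so lists are described by counts and medians beside all genes, with no test of their own. Genes were named by rule: from the 12 largest changes in each direction with no overlap, the 6 widest gaps and the 6 smallest p outside the lists in each direction, up to 4 members by p and 1 of the opposite sign from each list, the 6 smallest p in each direction of each step (average log2 CPM of at least 3, except for lists), and a fixed set of known markers. BBC3, TNFRSF10B, PMAIP1, CCNG1, ZMAT3, SFN, RPRM, BUB3, ATM, SLC30A1, MTF1, NQO1, HSPA1B, HSPA5, WNT5A, FOXA2, FOXJ1 and FOS were added after their values were seen. Coordinates and promoters are from RefSeq (GRCh38.p14), which held 42656 of the symbols. The scripts were tested on simulated data. Alternatives were RLE factors, DESeq2 1.42.0, other filters on low counts, limma 3.58.1 on log2(TPM + 1), a block for the replicate number, leaving out each library and each group, and, chosen after seeing the data, leaving out ribosomal RNA, mitochondrial and AFP counts.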

Additional observations from a re-analysis of the deposited data

Results flagged for a closer look

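In 9 of 154 sides of 4 libraries examined (72 genes and 5 library measures), 1 library lay further from its nearest neighbour than Dixon's critical value allows for the range of the side; chance alone passes this mark in about 1 of 20. As a side holds 2 doses, a difference between doses can also set a library apart. On the high side, 480 µg/ml replicate 2 stood out for CDKN1A, at 1152 CPM against 695 to 765 CPM in the others, and for FDXR, at 77.0 against 45.6 to 50.6 CPM. This library also had the largest share of mitochondrially encoded counts on that side, and its part in the values of these p53 targets was not tested. On the same side, 240 µg/ml replicate 1 stood out for LEFTY1, at 8.87 against 3.09 to 3.79 CPM.

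On the low side, 24 µg/ml replicate 1 was highest for H2BC4, at 4.51 against 2.99 to 3.02 CPM, and for MGAM2, at 228 against 197 to 199 CPM, and lowest in the share of mitochondrially encoded counts, at 1.06% against 1.52% to 1.59%. For KRT15, 24 µg/ml replicate 2 was lowest, at 0.234 against 0.431 to 0.468 CPM. Untreated replicate 2 was highest for MFSD1, at 7.48 against 5.95 to 6.19 CPM, and for MKI67, at 126 against 118 to 119 CPM.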

How the results depend on the processing

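The pooled counts of 3413 genes higher and 3221 lower were within 1.5 times under all alternatives but the loss of a low group: without untreated cells they were 1374 and 1453, and without 24 µg/ml 1765 and 1736, where fewer libraries entered. Leaving out 1 library gave 2573 to 3643 higher and 2429 to 3599 lower. For 24 µg/ml against untreated (0 and 0), DESeq2 gave 32 and 4, no filter on low counts 60 and 23, the 4 libraries alone 12 and 2, and leaving out 1 library 0 to 22 and 0 to 2. For 480 against 240 µg/ml (5 and 42), DESeq2 gave 38 and 282, no filter 85 and 380, limma on TPM 3 and 8, the 4 libraries alone 0 and 0, and leaving out 1 library 0 to 615 and 0 to 1033; the cause was not tested. A block for the replicate number gave 3151 and 3070 in the pooled test, and 0 and 8 at 480 against 240 µg/ml. Replicate numbers do not pair the libraries: deviations from the group mean correlated at -0.0998 to 0.0842 between groups. The difference in mitochondrial share was 0.405 to 0.847 percentage points and in ribosomal RNA share -0.456 to 0.337 with 1 library left out, and in genes detected 762 to 1303. Over 232 named genes and 20 alternatives, 4462 values kept their side of the threshold, 140 lost their call and 30 gained one. A change of sign was counted only for a gene called in either fit, so the 4462 can include sign changes of uncalled genes. It was counted for 1 value, NEAT1 by limma on TPM (-0.33, adjusted p = 0.265). Low counts limit genes under the floor of 3 counts.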

Other observations

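Genes of the Wnt pathway, which keeps stem and progenitor cells dividing, fell in 13 of 23 tested cases and rose in 0 (56.5% called, beside 38.2% of all genes, median -0.39). LGR5, a receptor and stem cell marker gene, stood at 13.5, 14.2, 15.1 and 19.5 CPM on the low side and 5.88, 3.07, 1.49 and 1.12 CPM on the high side (log2 fold change -2.44 ± 0.40, adjusted p = 0.00105). The feedback genes AXIN2 (-1.23 ± 0.17, adjusted p = 0.000483) and NKD1 (-1.49 ± 0.21, adjusted p = 0.000503) and the secreted inhibitor gene DKK1 (-1.38 ± 0.18, adjusted p = 0.000414) fell, while the ligand gene WNT5A had 0.29 ± 0.13, adjusted p = 0.0866. With the untreated group left out 7 members fell and with the 24 µg/ml group left out 6. Of 16 tested genes of lung and foregut progenitors 6 fell and 3 rose (56.2% called). ETV4, a target gene of fibroblast growth factor signals, stood at 138, 121, 128 and 138 CPM on the low side and 50.9, 45.0, 17.9 and 25.03 CPM on the high side (log2 fold change -1.92 ± 0.27, adjusted p = 0.000486), and FOXA2, a foregut factor gene, had -0.064 ± 0.095, adjusted p = 0.620. With the untreated group left out 2 fell, and by limma on TPM 1 rose.

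Of the early embryonic and neural genes called, most fell. Of 9 tested markers of pluripotent cells 6 fell and 0 rose (66.7% called), with summed levels of 146 to 162 CPM on the low side and 63.3 to 99.1 CPM on the high side. LEFTY1, a NODAL inhibitor gene, stood at 24.96, 20.6, 19.1 and 15.9 CPM on the low side and 8.87, 3.79, 3.09 and 3.64 CPM on the high side (log2 fold change -2.06 ± 0.29, adjusted p = 0.000528), while POU5F1 had 0 counts in every library and NANOG at most 3. With either low group left out 3 fell. Of 10 tested neural genes 6 fell and 2 rose (80% called). NES, the nestin gene (-1.61 ± 0.17, adjusted p = 0.000175), and SOX1 (-2.01 ± 0.37, adjusted p = 0.00176) fell, and OTX2, a forebrain factor gene, rose (0.69 ± 0.11, adjusted p = 0.000910); 1 of the 2 rose without untreated replicate 2 or without a library of 24 µg/ml.

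Markers of airway cell types moved in both directions. KRT15, a basal cell keratin gene, stood at 0.431, 0.449, 0.468 and 0.234 CPM on the low side and 1.48, 1.67, 3.32 and 3.69 CPM on the high side (log2 fold change 2.68 ± 0.35, adjusted p = 0.000427), whereas KRT5 had at most 2 counts in a library and TP63 at most 10. Of 5 tested basal genes 2 rose and 2 fell (80% called, beside 38.2% of all genes). MUC5AC, a mucin gene of goblet cells, stood at 3.75, 3.66, 2.55 and 2.57 CPM on the low side and 0.903, 0.816, 0.615 and 0.406 CPM on the high side (log2 fold change -2.19 ± 0.26, adjusted p = 0.000277), among 1 higher and 2 lower of 9 secretory genes (33.3% called). CAPS, a calcium-binding gene of ciliated cells, stood at 6.39, 4.32, 4.95 and 4.51 CPM on the low side and 1.77, 2.04, 0.896 and 1.64 CPM on the high side (log2 fold change -1.67 ± 0.24, adjusted p = 0.000511), among 3 higher and 4 lower of 17 (41.2% called), and FOXJ1, the master factor gene of cilia, had 0.11 ± 0.29, adjusted p = 0.783. Just 1 ciliated gene rose when either untreated library or 24 µg/ml replicate 1 was left out. Of 11 neuroendocrine genes 3 rose and 3 fell (54.5% called), and 1 rose without untreated replicate 2 or 480 µg/ml replicate 1. PCSK1, a prohormone protease gene, fell (-1.45 ± 0.31, adjusted p = 0.00374) and SYP, the synaptophysin gene, rose (1.00 ± 0.17, adjusted p = 0.00110). Of 6 tested endothelial genes 1 rose and 1 fell (33.3% called), and 0 rose when leaving out either library of 24 µg/ml, the second of 240 µg/ml or the first of 480 µg/ml.

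Immediate early genes, which answer growth signals, fell in 7 of 21 cases and rose in 3 (47.6% called). EGR1, a zinc finger factor gene, stood at 6.75, 7.18, 7.45 and 8.60 CPM on the low side and 13.6, 16.1, 14.5 and 18.3 CPM on the high side (log2 fold change 1.06 ± 0.12, adjusted p = 0.000271). DUSP5, a phosphatase gene that restrains the kinase ERK (-1.32 ± 0.15, adjusted p = 0.000220), and NR4A1 (-0.83 ± 0.14, adjusted p = 0.00117) fell, and FOS had 0.22 ± 0.11, adjusted p = 0.143. Of 19 long noncoding and small RNA host genes 4 rose and 3 fell (36.8% called, near the 38.2% of all genes), or 3 and 8 by limma on TPM. MIR34AHG, the host gene of the p53 target miR-34a, stood at 1.15, 1.31, 1.61 and 2.53 CPM on the low side and 4.11, 3.82, 2.95 and 4.40 CPM on the high side (log2 fold change 1.20 ± 0.24, adjusted p = 0.00290). TP53TG1 rose (1.04 ± 0.12, adjusted p = 0.000231), SNHG1 fell (-0.68 ± 0.093, adjusted p = 0.000475) and GAS5 had 0.048 ± 0.11, adjusted p = 0.757.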
